A study of Mus musculus with 8 samples.

Results

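The 9 genes described here encode the receptor chain for interleukin-7 and the proteins that carry and limit its signal: Il7r, Jak1, Jak3, Stat5a, Stat5b, Socs1, Socs2, Socs3 and Cish. They were chosen by symbol, as the named members of this pathway, out of 18193 genes that the array measured with a probe set of their own. The array carried 23 probe sets for them, of which 21 named 1 member alone and 2 named Jak3 together with Insl3. All 9 members lay above the median of their array on at least 2 arrays and were tested, as were 11957 genes in all.

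The 8 arrays held RNA of common lymphoid progenitors, the bone marrow cells from which B cells, T cells and innate lymphoid cells can form. There were 4 arrays of E2A_KO (E2A knockout) cells, which lack the E protein E2A (gene Tcf3), 2 of HEB_KO (HEB knockout) cells, which lack the related E protein HEB (gene Tcf12), and 2 of WT cells. All mice were C57bl/6 and 10 to 13 weeks old, and the gate was the same for every genotype: LIN-, FLT3+, CD127+ and LY6D-. Cells of several marrows were pooled for each sort, and the sources used here do not describe the knockout alleles or the cells that carried the deletion.

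Interleukin-7 binds a receptor made of the Il7r chain, also called CD127, and the common gamma chain. JAK1 sits on the Il7r chain and JAK3 on the common gamma chain, and on binding the kinases phosphorylate STAT5A and STAT5B, which then enter the nucleus and switch on target genes. Cish and the Socs genes are among the known STAT5 targets, and their proteins damp the same receptors in a feedback loop. In mice the pathway is needed for B-cell development, and E2A is known to act in the same progenitors at the entry to the B lineage. CD127 protein was itself a sort marker, so cells without it on their surface were not collected from any genotype.

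The targeted genes were read first. Tcf3 lay at 4.28, 3.71, 4.05 and 3.91 (log2 of the normalized intensity) on the E2A_KO arrays, against 8.57 and 8.44 on HEB_KO and 7.76 and 7.98 on WT arrays. Tcf12 lay at 7.10 and 6.49 on the HEB_KO arrays, against 8.52 to 8.64 on E2A_KO and 8.85 and 8.76 on WT arrays. Both thus went with the labels, although whether these probe sets lie in the deleted parts is not known. Of the sort markers, Flt3 was bright on all arrays, at 10.12 to 10.53 in E2A_KO, 11.05 and 10.50 in HEB_KO and 10.47 and 10.66 in WT cells. Ly6d, whose protein was gated out, lay at 6.75, 4.48, 4.26 and 6.88 on the E2A_KO arrays, at 7.52 and 3.63 on the HEB_KO arrays and at 3.53 and 7.83 on the WT arrays. It was therefore above 6.5 on WT 2, HEB_KO 1, E2A_KO 1 and E2A_KO 4, arrays of every genotype. WT 2 and HEB_KO 1 also had the lowest hybridization controls, 10.29 and 10.32 (mean log2 intensity), against 11.40 to 12.62 on the other 6 arrays, and the called genes are also given without these 2 arrays.

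The promoters are shown for a pair of members, Il7r because it was the only member past the test and Cish as a known STAT5 target that did not pass it. Sequences are from RefSeq (GRCm38.p6), read 5′ to 3′ on the gene's strand, Il7r at chr15:9529942-9530126 on the minus strand and Cish at chr9:107296409-107296658 on the plus strand. Motifs were searched in the 250 bases before the start of each promoter entry, and the Cish line shows all of them. The Il7r line shows the first 185, because the last 65 lie within the bounds that the RefSeq gene table gives Il7r. Capitals mark CANNTG, the E-box that E proteins such as E2A and HEB recognise, and TTCNNNGAA, the palindrome that STAT5 recognises.
Il7r: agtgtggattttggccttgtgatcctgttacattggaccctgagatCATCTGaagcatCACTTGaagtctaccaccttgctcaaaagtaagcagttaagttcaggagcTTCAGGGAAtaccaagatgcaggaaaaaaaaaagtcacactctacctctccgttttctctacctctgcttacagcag
Cish: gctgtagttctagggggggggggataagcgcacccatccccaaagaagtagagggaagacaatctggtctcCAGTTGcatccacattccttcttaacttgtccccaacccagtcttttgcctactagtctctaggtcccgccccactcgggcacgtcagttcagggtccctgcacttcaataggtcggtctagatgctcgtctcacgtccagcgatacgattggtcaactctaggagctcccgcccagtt
The searched Il7r stretch held 3 E-boxes, CATCTG at -204 to -199, CACTTG at -192 to -187 and, beyond the bases shown, CACTTG at -34 to -29 (bases from the entry's start), and 1 STAT5 palindrome, TTCAGGGAA at -142 to -134. The searched Cish stretch held a single E-box, CAGTTG at -179 to -174, and no STAT5 palindrome, and bases outside it were not searched. Both motifs read the same on either strand, and none of the matches overlapped. Of 32851 promoters of this length in the RefSeq table, 66.2% held at least 1 E-box, 31.8% at least 2, 12.2% at least 3 and 7.02% at least 1 STAT5 palindrome. At least 3 E-boxes and a STAT5 palindrome stood in 300 of them (0.913%). That joint threshold equals the counts found in Il7r, so the share tests nothing about Il7r. The third Il7r E-box also lies in the 65 bases within the bounds of the gene. The table had an entry for 8 of the 9 members, with 10 promoters in all, and Socs2 was not among them. E-boxes stood in the promoters of 5 members (Il7r, Jak1, Stat5a, Stat5b and Cish) and STAT5 palindromes in those of 2, Il7r and Socs3. A match of letters is no measurement of binding.

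Il7r, the receptor chain itself, fell in E2A_KO cells. Its brighter probe set lay at 8.56, 7.89, 8.73 and 9.04 on the E2A_KO arrays, against 10.51 and 10.91 on the WT arrays (log2 intensity). Every E2A_KO array was below both WT arrays and the groups did not overlap. The means were 8.55 ± 0.48 in E2A_KO (SD, n = 4) and 10.71 ± 0.28 in WT cells (SD, n = 2), a log2 difference of -2.15 (SE 0.32, 95% confidence interval -2.89 to -1.42) or 4.45-fold less signal, with an adjusted p of 0.0330 from limma over all genes. Cells sorted as CD127-positive thus still carried Il7r transcript well above the array medians, which lay between 3.82 and 3.95, but less of it. In pooled sorted cells, fewer cells with the transcript and less transcript per cell cannot be told apart.

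The second Il7r probe set showed the same order of groups. It lay at 6.40, 5.88, 6.97 and 5.90 on the E2A_KO arrays, against 8.04 and 7.92 on the WT arrays, again without overlap. Its log2 difference was -1.69 (SE 0.34). In the fit over all 45037 probe sets, which tests more features and so adjusts harder, neither Il7r probe set passed (adjusted p 0.0754 for the brighter and 0.173 for the dimmer one).

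In HEB_KO cells the brighter Il7r probe set lay at 10.88 and 10.50, overlapping the WT arrays. The log2 difference of HEB_KO against WT was -0.02 (SE 0.37, 95% confidence interval -0.87 to 0.83), so a fall as large as that in E2A_KO cells lies outside the interval, while smaller changes inside it cannot be told from none. The second probe set lay at 7.79 and 7.08 on the HEB_KO arrays, both below the WT arrays, with a difference of -0.54 that did not pass (adjusted p 1). The probe sets therefore differ on whether the HEB_KO and WT arrays overlap. Set against the HEB_KO arrays directly, the E2A_KO arrays were lower by a log2 difference of -2.13 (SE 0.32, 95% confidence interval -2.87 to -1.40), which did not pass (adjusted p 0.0652) although the arrays did not overlap. The test of E2A_KO against HEB_KO shares the E2A_KO arrays with the test of E2A_KO against WT, so the values do not count as separate evidence.

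**Figure D1:**
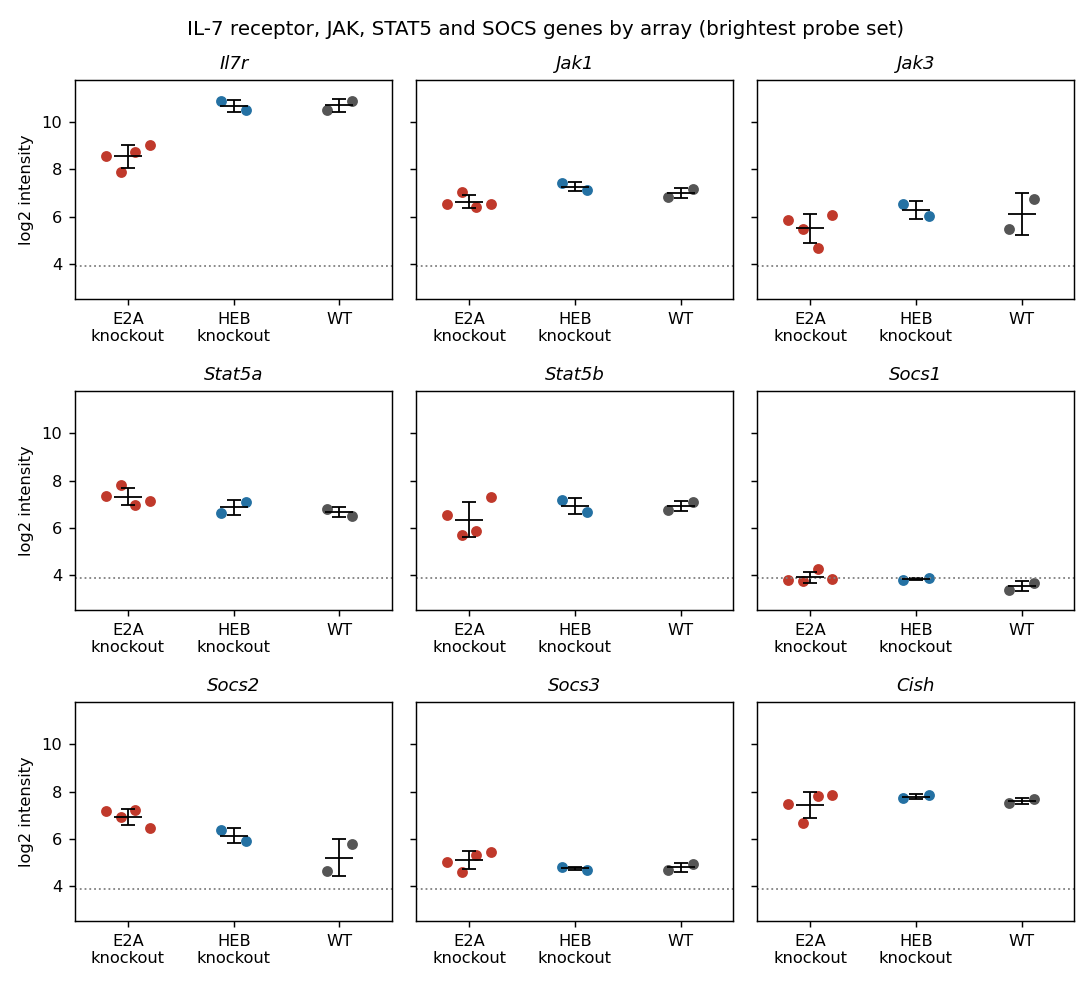
Log2 intensity (vertical axis) of the brightest probe set of each of the 9 members, 1 point per array, in E2A_KO (n = 4), HEB_KO (n = 2) and WT (n = 2) cells from left to right, with the mean and SD of each group as a bar with whiskers. The dotted line marks the median signal of the arrays. In the Il7r panel the 4 E2A_KO arrays lie between 7.89 and 9.04, below all HEB_KO and WT arrays, which lie between 10.50 and 10.91.

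Some of the other settings could not move the Il7r difference, only its adjusted p. These changed the filter, the variance estimate or the HEB_KO arrays used. The range of differences is thus partly fixed in advance. Over 20 other ways to scale, filter, model or leave out arrays, the log2 difference of E2A_KO against WT stayed between -2.48 and -1.92, that is between 5.59-fold and 3.80-fold less, and it was called under 10 of them. Without WT 1 it was -2.35 (adjusted p 0.1492) and without WT 2 it was -1.96 (adjusted p 0.3159). Leaving out WT 2 and HEB_KO 1 together also gave -1.96 (adjusted p 0.5041). Leaving out E2A_KO 1 also ended the call (adjusted p 0.0818 from limma). So did leaving out HEB_KO 1 or HEB_KO 2, but a HEB_KO group of 1 array adds nothing to the estimate of the spread. For E2A_KO against WT both are therefore the same fit as comparing only the 2 genotypes (adjusted p 0.0717 from limma). The count of settings above holds this fit more than once.

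Measures of the arrays moved with genotype too. The E2A_KO arrays had median signals of 3.91 to 3.95 (log2) and upper quartiles of 54.9 to 62.8 (intensity), against 3.82 and 3.84 and 68.5 and 63.3 on HEB_KO and 3.89 and 3.86 and 64.5 and 66.1 on WT arrays. Their hybridization controls were 11.52 to 12.62, against 10.32 and 11.60 on HEB_KO and 11.40 and 10.29 on WT arrays, and with these as a covariate Il7r differed by -2.05 (adjusted p 0.4914). The log2 signal of 3′ over 5′ actin probe sets, a sign of RNA integrity and of amplification, was 3.86 to 4.78 on E2A_KO, 3.37 and 3.58 on HEB_KO and 4.45 and 3.84 on WT arrays, and that of Gapdh was 5.38 to 5.97 on E2A_KO, 4.67 and 5.14 on HEB_KO and 6.03 and 4.998 on WT arrays. The E2A_KO arrays thus lay above the HEB_KO arrays but overlapped the WT arrays in both, and the part of the 3′ to 5′ difference in the Il7r result was not tested.

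**Figure D2:**
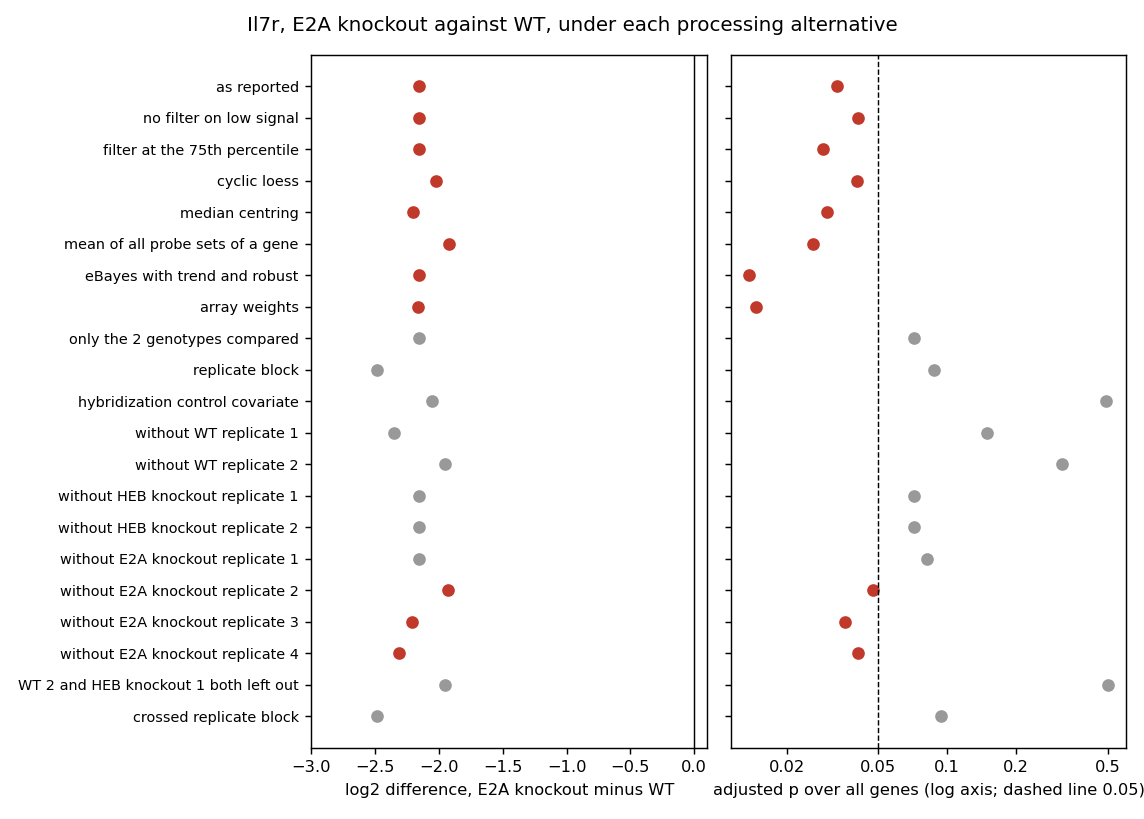
Il7r in E2A_KO against WT cells as reported and under each of 20 other settings (red where called, grey where not), with the log2 difference on the left horizontal axis and the adjusted p on the right one (log scale, with a line at 0.05). Settings that change only the filter, the variance estimate or the HEB_KO arrays used cannot move the difference. All differences lie between -2.48 and -1.92, while the adjusted p spans 0.0137 to 0.5041.

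Of the 9 members Il7r alone passed, which is 1 of 9 against 53 of 11957 genes tested (0.443%) in the same comparison. Split by direction, 1 member fell, against 0.393% of genes, and 0 rose, against 0.0502%. Members whose E2A_KO and WT arrays did not overlap numbered 4 of 9 (Il7r, Stat5a, Socs1 and Socs2), while 25.4% of all genes tested did not overlap. At the level of single probe sets, 8 of 21 did not overlap, against 22.1% of all probe sets, and 0 of 21 passed, against 0.0822%. At an unadjusted p under 0.05 there were 3 members (Il7r, Socs2 and Stat5a), against 13.4% of genes.

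The kinases came next in the pathway. Jak1, the kinase on the Il7r chain, lay at 6.55, 7.04, 6.43 and 6.52 in E2A_KO, 7.41 and 7.12 in HEB_KO and 6.84 and 7.15 in WT cells. The difference of E2A_KO against WT was -0.36 (SE 0.24, 95% confidence interval -0.92 to 0.19, adjusted p 0.5483), with arrays that overlapped. Against HEB_KO it was -0.64 (SE 0.24, adjusted p 0.2475), without overlap.

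The 3 probe sets of Jak1 did not give 1 answer. The probe set 1433804_at lay at 5.53, 5.28, 4.61 and 5.72 in E2A_KO, 6.40 and 6.00 in HEB_KO and 7.03 and 6.36 in WT cells, a difference of -1.41 against WT without overlap, which did not pass (adjusted p 0.2324). The probe set 1433803_at lay at 6.51, 6.12, 6.95 and 6.20 in E2A_KO and at 6.53 and 7.23 in WT cells, a difference of -0.44 with overlap. All 3 were negative, with differences from -1.41 to -0.36, and the parts of the transcript they read were not compared.

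Jak3, the kinase on the common gamma chain, lay at 5.84, 5.46, 4.67 and 6.07 in E2A_KO, 6.54 and 6.02 in HEB_KO and 5.48 and 6.75 in WT cells. The difference of -0.60 (SE 0.45, 95% confidence interval -1.63 to 0.43) did not pass (adjusted p 0.5835), and the WT arrays differed from each other by more than that. A brighter probe set that also reads Insl3 lay at 8.66, 8.61, 8.49 and 8.67 in E2A_KO, 8.81 and 8.75 in HEB_KO and 8.81 and 8.88 in WT cells, a narrow difference of -0.24 without overlap that cannot be assigned to 1 of its genes.

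The STAT5 pair pointed opposite ways in E2A_KO against WT cells, and neither passed. Stat5a, a transcription factor that carries the signal to the nucleus, lay at 7.35, 7.81, 6.98 and 7.13 in E2A_KO, 6.64 and 7.09 in HEB_KO and 6.80 and 6.51 in WT cells. All E2A_KO arrays were above both WT arrays, with a difference of 0.66 (SE 0.28, 95% confidence interval 0.03 to 1.30, adjusted p 0.3557). Stat5b, its close relative, lay at 6.53, 5.69, 5.86 and 7.31 in E2A_KO, 7.16 and 6.67 in HEB_KO and 6.76 and 7.07 in WT cells, so that the E2A_KO arrays spanned the WT arrays on both sides. Its difference was -0.57 (SE 0.43, 95% confidence interval -1.54 to 0.40, adjusted p 0.5823).

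A second Stat5b probe set, 1422102_a_at, ran the other way. It lay at 5.48, 5.43, 4.62 and 5.68 in E2A_KO, 5.08 and 5.07 in HEB_KO and 4.76 and 4.80 in WT cells, a difference of 0.52 with overlap. The direction of Stat5b thus depended on the probe set. The second Stat5a probe set, 1450259_a_at, was above the array median on no array, so Stat5a rests on 1 probe set.

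**Figure D3:**
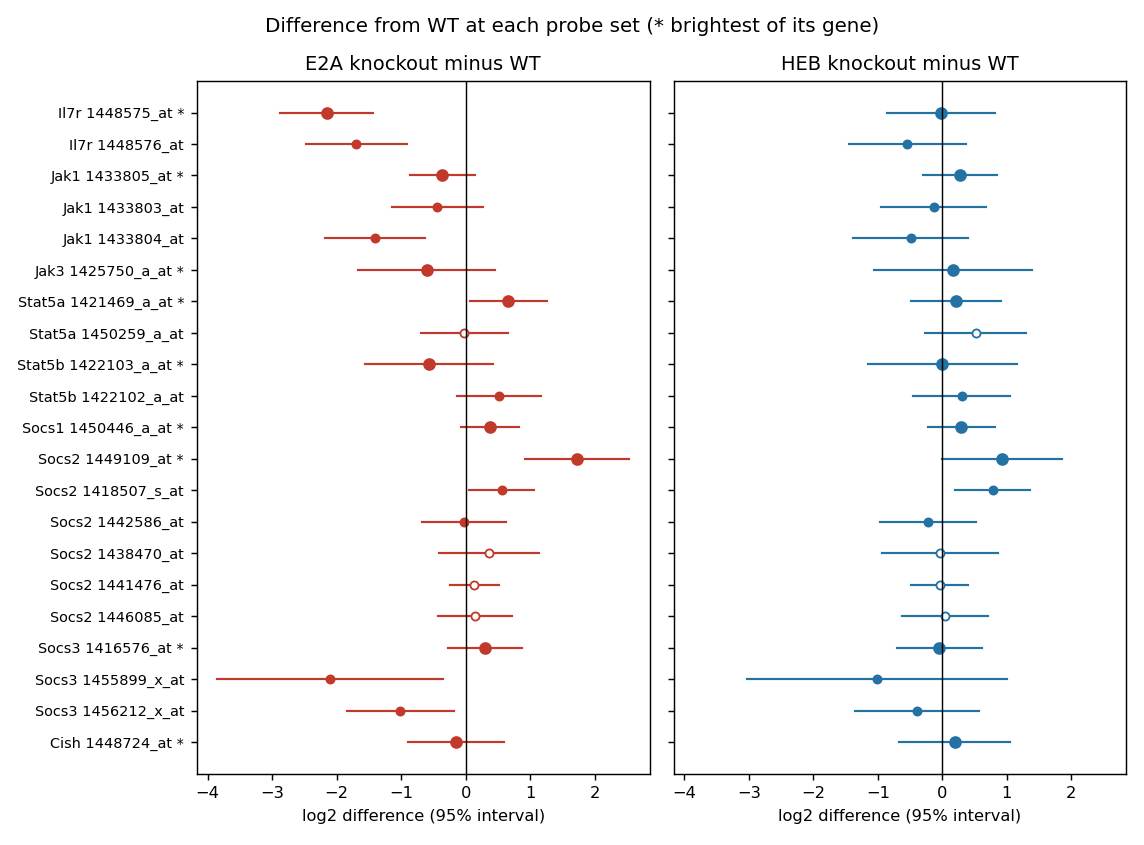
Log2 difference with its 95% confidence interval for each of the 21 probe sets that name 1 member alone, in E2A_KO against WT (left) and HEB_KO against WT cells (right), with open points for probe sets above the array median on fewer than 2 arrays and a star at the brightest of each gene. Both Il7r probe sets lie to the left of 0 in E2A_KO against WT cells, while probe sets of Socs2, Socs3 and Stat5b lie on both sides.

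Among the inhibitors, Socs2, which targets cytokine and growth hormone receptors, had the largest difference after Il7r in E2A_KO against WT cells when each gene is read from its brightest probe set. It lay at 7.18, 6.92, 7.20 and 6.45 in E2A_KO, 6.36 and 5.90 in HEB_KO and 4.64 and 5.77 in WT cells. The arrays of E2A_KO, HEB_KO and WT cells thus did not overlap, with E2A_KO highest and WT lowest. The means were 6.94 ± 0.35 in E2A_KO (SD, n = 4), 6.13 ± 0.32 in HEB_KO (SD, n = 2) and 5.21 ± 0.80 in WT cells (SD, n = 2).

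The difference of Socs2 in E2A_KO against WT cells was 1.73 (SE 0.36, 95% confidence interval 0.93 to 2.53), 3.32-fold, and did not pass (adjusted p 0.0868). The WT arrays lay apart from each other, and the difference was 1.16 without WT 1 and 2.30 without WT 2. In HEB_KO against WT cells it was 0.92 (SE 0.41, adjusted p 1), and in E2A_KO against HEB_KO cells 0.81 (SE 0.36, adjusted p 0.3022). These comparisons share arrays.

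The other Socs2 probe sets did not show the same order. The probe set 1418507_s_at lay at 5.95, 6.10, 5.73 and 5.48 in E2A_KO, 6.25 and 5.81 in HEB_KO and 5.20 and 5.31 in WT cells, a difference against WT of 0.56 in E2A_KO and 0.78 in HEB_KO, both without overlap and neither called. The probe set 1442586_at lay at 4.08, 4.78, 4.39 and 3.69 in E2A_KO and at 4.29 and 4.23 in WT cells, a difference of -0.02. The remaining 3 of the 6 probe sets were above the array median on fewer than 2 arrays. Averaged over its probe sets, Socs2 differed by 0.49 in E2A_KO against WT cells.

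Socs3, which blocks JAK kinases at receptors of the gp130 kind, lay at 5.02, 4.60, 5.30 and 5.45 in E2A_KO, 4.79 and 4.70 in HEB_KO and 4.66 and 4.93 in WT cells at its brightest probe set, a difference of 0.30 (SE 0.27, adjusted p 0.6465). Its probe set 1455899_x_at lay at 2.93, 2.98, 5.64 and 2.66 in E2A_KO, 4.74 and 4.53 in HEB_KO and 5.74 and 5.57 in WT cells. On this probe set 3 E2A_KO arrays were far below WT while E2A_KO 3 lay between the WT arrays, and the difference of -2.10 did not pass (adjusted p 0.4232).

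The third Socs3 probe set, 1456212_x_at, lay at 2.69, 3.22, 4.17 and 3.41 in E2A_KO, 4.07 and 3.91 in HEB_KO and 4.57 and 4.20 in WT cells, a difference of -1.01 without overlap (adjusted p 0.4211). The brightest Socs3 probe set was therefore slightly higher and the other 2 lower in E2A_KO than in WT cells, none past the test, and no direction can be given for the gene. Probe sets with the suffix x can bind other transcripts too.

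Socs1, an inhibitor of JAK kinases that acts on the interleukin-7 receptor among others, was dim, at 3.79, 3.76, 4.25 and 3.81 in E2A_KO, 3.78 and 3.85 in HEB_KO and 3.37 and 3.67 in WT cells. It was above the array median on 2 arrays only, and its difference of 0.38 (SE 0.23, adjusted p 0.4872) lies in a range where signal and background mix. Cish, a direct STAT5 target in lymphoid cells, lay at 7.46, 6.67, 7.81 and 7.86 in E2A_KO, 7.73 and 7.86 in HEB_KO and 7.52 and 7.69 in WT cells. The E2A_KO arrays overlapped the WT arrays, with a difference of -0.16 (SE 0.33, 95% confidence interval -0.91 to 0.60, adjusted p 0.8584). A fall of Cish as large as that of Il7r lies outside this interval.

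In HEB_KO against WT cells 0 of 9 members passed limma's test, as did 0 of 11957 genes (0%), while at an unadjusted p under 0.05 there were 0 members and 312 genes (2.61%). Members that did not overlap numbered 3 of 9 (Socs1, Socs2 and Cish), against 34.8% of genes, and member probe sets 10 of 21, against 34.2% of probe sets. Socs1 differed by 0.29, Socs2 by 0.92 and Cish by 0.19, all higher in HEB_KO cells. The median difference of the members was 0.19, beside 0.09 over all genes tested, and with 2 arrays against 2 the median SE over all genes was 0.32.

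In E2A_KO against HEB_KO cells 0 of 9 members passed, beside 14 of 11957 genes (0.117%), and 3 members had an unadjusted p under 0.05 (16.5% of genes). Il7r, Jak1 and Socs2 were the 3 of 9 that did not overlap, against 29.4% of genes. No member was among the 0.1% of genes that fell or the 0.0167% that rose. Of the 21 member probe sets 5 did not overlap, against 23.3% of all, and 0 passed, against 0.00222%. The median member difference was -0.34, beside -0.16 over all genes, and that of E2A_KO against WT was -0.16, beside -0.05 over all genes. Jak3 differed by -0.77, Stat5a by 0.46, Stat5b by -0.57, Socs3 by 0.35 and Cish by -0.34, and none of these passed.

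Lists of related genes were read in the same fit. In E2A_KO against WT cells no gene was called in the lists of common gamma chain cytokines and receptors (6 tested of 12 on the array), other JAK and STAT genes (6 tested), other receptors that signal through STAT5 (6 tested of 8), other negative regulators (16 tested), the PI3K and RAS arms (12 tested) or STAT5 and interleukin-7 targets (16 tested). Their medians were -0.21, -0.39, -0.11, -0.26, -0.24 and -0.03, beside -0.05 over all genes. In HEB_KO against WT cells no gene of any of these lists was called, with medians from -0.14 to 0.17. Il2rg, the gene of the common gamma chain itself, had no probe set of its own in the annotation used here. It was therefore not tested.

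In the receptor list the smallest p in E2A_KO against WT belonged to Il15, a cytokine of the common gamma chain family (difference -1.23, adjusted p 0.0929). It lay at 3.32, 3.75, 3.46 and 3.65 in E2A_KO and 4.995 and 4.559 in WT cells. The E2A_KO values were below the medians of their arrays (3.91 to 3.95), where signal and background mix. Il21r had the next smallest p (-0.72, adjusted p 0.3527). Crlf2, which pairs with Il7r in the receptor for thymic stromal lymphopoietin, differed by -0.21 (adjusted p 0.6662) and was added after its value was seen. Stat4, a STAT of interleukin-12 signalling, lay at 6.01, 5.67, 5.90 and 5.96 in E2A_KO, 7.15 and 7.31 in HEB_KO and 6.66 and 7.58 in WT cells. Its difference against WT of -1.23 did not pass (adjusted p 0.1047), and all 6 tested genes of its list were negative. Stat6, the STAT of interleukin-4 signalling, differed by -0.40 (adjusted p 0.4899).

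Csf3r, the G-CSF receptor, differed by -0.88 (adjusted p 0.185) and Csf2rb, the shared beta chain of the GM-CSF and interleukin-3 receptors, by -1.27 (adjusted p 0.383). Among the other negative regulators, Socs6 differed by -1.33 (adjusted p 0.112) and Socs5 by -1.19 (adjusted p 0.2277), without overlap for either, and 12 of the 16 were negative. Pik3r1, the regulatory subunit of PI3 kinase, differed by -0.89 (adjusted p 0.1547) and Map2k1, a kinase of the RAS arm, by -0.86 (adjusted p 0.2277). None of these passed.

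The targets of STAT5 and interleukin-7 divided evenly, with 8 positive and 8 negative of 16 in E2A_KO against WT cells. Mcl1, a survival factor of the BCL2 family, differed by -0.60 (adjusted p 0.3557) and Gfi1, a transcriptional repressor, by -0.47 (adjusted p 0.4011). Bcl2, the survival factor most often tied to interleukin-7, lay at 9.98, 10.19, 10.02 and 8.90 in E2A_KO, 8.26 and 8.33 in HEB_KO and 10.14 and 8.56 in WT cells, a difference of 0.42 against WT (adjusted p 0.7163). Pim1, a survival kinase, differed by 0.36 (adjusted p 0.6223) and Myc, a growth regulator, by -0.22 (adjusted p 0.7543), and Bcl2, Pim1 and Myc were added after their values were seen.

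Of the transcription factors known to bind the Il7r locus, 2 of 13 tested fell in E2A_KO against WT cells. Tcf3 is the deleted gene itself. Foxo1, which is known to switch on Il7r in lymphocytes, lay at 6.604, 5.53, 5.601 and 6.34 in E2A_KO, 7.97 and 7.68 in HEB_KO and 7.93 and 8.49 in WT cells. All E2A_KO arrays were below all others, with a difference against WT of -2.19 (SE 0.35, adjusted p 0.0416). The call was lost in 6 of 8 fits without 1 array (all but those without E2A_KO 1 or E2A_KO 3, from -2.47 to -1.92), of which those without HEB_KO 1 and HEB_KO 2 are the same fit. Without WT 2 and HEB_KO 1 the differences against WT were -1.92 for Foxo1 and -3.78 for Tcf3, neither called. Averaged over their probe sets, Foxo1 differed by -0.92 (adjusted p 0.147) and Il7r by -1.92 (adjusted p 0.0261 from limma). Whether the fall of Foxo1 has a part in that of Il7r was not tested.

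In the same list 11 of 13 were negative with a median of -0.42. Ebf1, a B-lineage factor, lay at 2.40, 2.32, 3.06 and 2.49 in E2A_KO, 5.79 and 3.46 in HEB_KO and 4.36 and 6.90 in WT cells (difference against WT -3.06, adjusted p 0.131). The E2A_KO values of Ebf1 were below the medians of their arrays (3.91 to 3.95), and its WT arrays lay apart from each other. Ets1 differed by -1.77 (adjusted p 0.1875). In E2A_KO against HEB_KO cells Tcf12 rose (1.77, adjusted p 0.0372), being the deleted gene of the HEB_KO cells, and Tcf3 fell (-4.52, adjusted p 0.000115). Without WT 2 and HEB_KO 1 these were 2.07 and -4.45, neither called. Tcf12 lost its call in 7 of 8 fits without 1 array (all but that without E2A_KO 3), of which those without WT 1 and WT 2 are the same fit. Averaged over its probe sets, Tcf12 differed by 1.15 and was not called (adjusted p 0.0623 from limma). In HEB_KO against WT cells Tcf12 differed by -2.01, with the unadjusted p of 2.74e-05 and an adjusted p of 0.328.

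**Figure D4:**
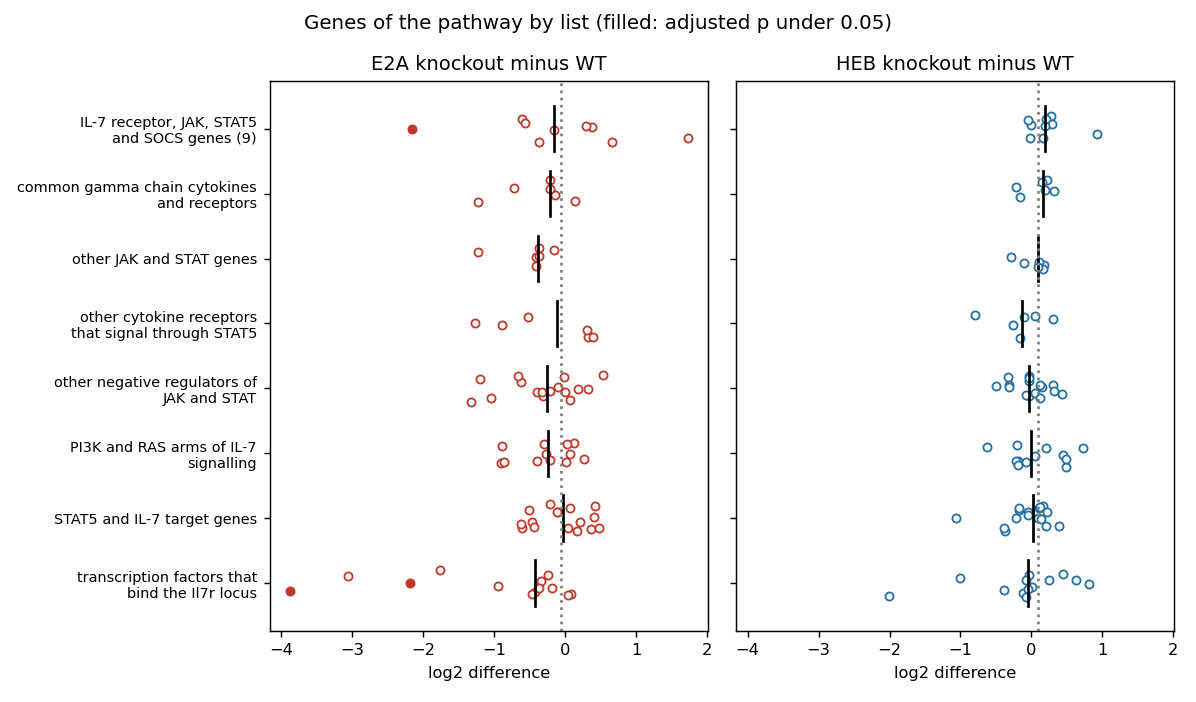
Log2 difference of E2A_KO against WT (left) and HEB_KO against WT cells (right) for each tested gene of the members and of the 7 lists of related genes, 1 point per gene, filled where called, with a line at each list's median and a dotted line at the median of all genes tested. Il7r, Foxo1 and Tcf3 are the only filled points, and the 16 STAT5 targets lie on both sides of 0 in E2A_KO against WT cells.

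Of the other genes whose proteins defined the gate, neither was called. Flt3 differed by -0.24 in E2A_KO against WT cells (adjusted p 0.6688), and Ly6d by -0.09 (adjusted p 0.9817). Cd93, an early progenitor marker that the gate as given does not name, fell, with 10.16 to 10.26 on the E2A_KO arrays and 11.49 and 11.63 on the WT arrays (difference -1.34, adjusted p 0.0273). It lost the call in 7 of 8 fits without 1 array (all but that without E2A_KO 3, from -1.42 to -1.27), of which those without HEB_KO 1 and HEB_KO 2 are the same fit. Without WT 2 and HEB_KO 1 the Cd93 difference was -1.27 and not called. Averaged over its probe sets, Cd93 differed by -1.20 and was not called (adjusted p 0.0658 from limma). With the replicate block the Cd93 difference was -1.33 and with the hybridization controls as covariate -1.21, neither called. Kit, the stem cell factor receptor, also not named in the gate, differed by -2.08 (adjusted p 0.0823).

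Markers of other cell types were read beside Il7r. Summed over 7 B-lineage markers, the intensity was 247 to 366 on E2A_KO arrays, 873 and 633 on HEB_KO arrays and 846 and 1384 on WT arrays, with 0 of the 6 tested markers called. The largest part of that sum on the HEB_KO and WT arrays was Blnk, an adaptor of B-cell receptor signalling, at 6.53, 6.62, 4.69 and 6.97 (log2) in E2A_KO, 8.93 and 8.45 in HEB_KO and 9.36 and 9.52 in WT cells (difference against WT -3.24, adjusted p 0.0521). The other tested B-lineage markers did not share its size, with Cd79a at -0.14, Cd79b at -0.21, Igll1 at -0.08 and Pax5 at 0.31, while Vpreb1 at -1.9964 (adjusted p 0.4464) had 1 bright WT array (8.42 on WT 2, against 3.78 on WT 1).

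Summed granulocyte and monocyte markers ran at 2592 to 4846 on E2A_KO, 4492 and 6601 on HEB_KO and 2885 and 3342 on WT arrays, with 0 of the 9 tested markers called. Mpo, a granule enzyme of myeloid progenitors, made up most of the sum on the E2A_KO and WT arrays and differed by 0.70 (adjusted p 0.3786). Csf1r, the M-CSF receptor (-1.36, adjusted p 0.1159), and Lyz2, a lysozyme (-1.49, adjusted p 0.1184), were lower on every E2A_KO array than on both WT arrays. Against WT, 4 of the tested markers were higher and 5 lower in E2A_KO cells, with a median of -0.25. In HEB_KO against WT cells 7 were higher and 2 lower, with a median of 2.80, and none was called.

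Dendritic cell markers summed to 1666 to 4519 on E2A_KO, 5374 and 3196 on HEB_KO and 3136 and 4442 on WT arrays. Of the 5 tested 1 was called, Ccr9, a chemokine receptor also found on lymphoid progenitors, which fell in E2A_KO against WT cells (-5.28, adjusted p 0.0033) and against HEB_KO cells (-3.88, adjusted p 0.0372). Without WT 2 the first was -4.9997 (adjusted p 0.0571), and without WT 2 and HEB_KO 1 they were -4.9997 (adjusted p 0.115) and -3.42 (adjusted p 0.47). Against HEB_KO cells the call was also lost without HEB_KO 1, HEB_KO 2, E2A_KO 1 or E2A_KO 4 alone (-4.35 to -3.42). The probe set read for Ccr9 has the suffix x, and such probe sets can bind other transcripts too. Averaged over its probe sets, Ccr9 differed by -1.75 against WT (adjusted p 0.0098 from limma). The averaged difference against HEB_KO cells was -1.08 and was not called (adjusted p 0.077 from limma). With the hybridization controls as covariate the differences were -4.76 and -3.40, neither called.

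The 8 markers of T, NK and innate lymphoid cells summed to 151 to 176 on E2A_KO, 134 and 138 on HEB_KO and 133 and 149 on WT arrays, and Rora, a factor of innate lymphoid cells, had the smallest p (0.56, adjusted p 0.3492). Erythroid and megakaryocyte markers summed to 932 on E2A_KO 1 and to 121 to 153 on the other E2A_KO arrays, 103 and 141 on HEB_KO and 149 and 115 on WT arrays, with Gata1, an erythroid factor, at a difference of 0.62 (adjusted p 0.5467). In each of these lists 0 of 5 tested markers were called. Without E2A_KO 1 the Il7r difference lost its call, as given above. Il7r on E2A_KO 1 lay at 8.56 (log2), next to the E2A_KO mean of 8.55, so leaving this array out hardly moves the difference itself. Whether the makeup of the sorted cells has a part in the difference of Il7r was not tested.

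The genes whose levels ran most like those of Il7r over the 8 arrays were Klhl11 (r = 0.9954), Tha1 (0.9941), Cd72 (0.9938), Sgce (0.9922) and Rbm43 (0.9877), by Pearson correlation. Those most like Socs2 were Sergef (0.9847), Thyn1 (0.9647), Timm8a1 (0.9631), Tmem39b (0.9565) and Rcan1 (0.9547). They were the highest of 6676 genes with a range of at least 1 on the log2 scale, and the arrays share their grouping by genotype, so the values describe these 8 arrays.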

How the data were processed

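RNA of sorted LY6D-negative common lymphoid progenitors from 8 pooled samples was amplified over more than 1 round, labelled and hybridized to Affymetrix arrays, per the labels' protocols. The deposited intensity values came from RMA, per the submitters' processing notes, whose version and chip definition the sources used here do not state. Their size and range are those of a linear scale, so they were turned into log2 without a further normalization. After 64 controls were set aside from the 45101 probe sets, 34945 had 1 gene name, 932 had several and 9160 had none in the annotation used here.

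A gene was read from its brightest probe set (by the mean over all arrays), and it was tested where that probe set exceeded the array median on 2 or more arrays. Values near that floor understate differences. A limma model (version 3.58.1, R 4.3.3) took all 8 arrays with a mean for each genotype (5 residual degrees of freedom), and each contrast had a two-sided test. P-values were adjusted by Benjamini-Hochberg over 11957 genes. "Rose", "fell" and "called" mean an adjusted p under 0.05. A second fit over all 45037 probe sets other than controls had no filter. The fits were tested on simulated data whose changes were larger than any member difference. Recovery of changes of the sizes reported here was therefore not tested.

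The members and lists were chosen with earlier results of these data known. From each list, markers included, the text names every called gene and otherwise the 1 or 2 with the smallest unadjusted p in E2A_KO against WT, with further genes marked as added. No arrays were identical. The sample titles call the arrays biological replicates, but the labels do not tie them to separate mice. P-values therefore reflect how arrays of pooled cells varied, and how much of that variation is technical is not known. The number of arrays limits precision. The alternatives changed the scaling, filter, probe set choice, variance model, samples and threshold.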

Additional observations from a re-analysis of the deposited data

Results flagged for a closer look

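Among 23 probe sets of the members, 2 had 1 E2A_KO array far from the other 3, by a gap that chance gives in about 1 in 20 groups. Socs1 lay at 4.25 on E2A_KO 3, while the other 3 arrays lay between 3.76 and 3.81 (gap 0.892 of the range). The Socs3 probe set 1455899_x_at lay at 5.64 on E2A_KO 3, while the others lay between 2.66 and 2.98 (gap 0.891 of the range). On the same array the granulocyte gene S100a8 lay at 8.63, against 3.11 to 3.90 on the other E2A_KO arrays, 7.66 and 9.84 on HEB_KO and 3.35 and 6.87 on WT arrays, and its part in these values was not tested.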

How the results depend on the processing

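Of 27 member differences, 14 kept their sign under every alternative run and 13 did not. There were 22 alternatives for 21 of them and 21 for the 6 of Socs1 and Socs3. The call of Il7r in E2A_KO against WT, the single called member, held under 11 and was lost under 11 (2 of the 22 change only the threshold), with the same direction in all. Several of these could not move the difference. Those without HEB_KO 1, without HEB_KO 2 and with only the 2 genotypes are the same fit for this comparison. No member was then called with only the 2 genotypes compared, with the replicate block, with the crossed block, with the hybridization controls as covariate, at an adjusted p under 0.01, or with WT 2 and HEB_KO 1 left out (0 in each), and 2 were called at 0.10. Leaving out 1 array gave 0 to 1 called members, 0 to 1 called probe sets and 2 to 104 called genes, the fewest without WT 2 and the most without E2A_KO 3, beside 53 with all arrays. Called genes in E2A_KO against WT were 91 with trended robust variances, 120 with array weights, 26 with only the 2 genotypes, 12 with the replicate block, 8 with the crossed block, 1 with the hybridization covariate, 3 at 0.01, 153 at 0.10 and 0 without WT 2 and HEB_KO 1. In E2A_KO against HEB_KO, beside 14, they were 42, 91, 6, 3, 0, 1, 1, 86 and 0 in the same order, and 1 to 21 with 1 array left out. There 1 member, Il7r, was called after median centring, with trended robust variances, with array weights and at 0.10. Of single member probe sets, 1 was called in E2A_KO against WT with trended robust variances, with array weights and at 0.10, and 1 in E2A_KO against HEB_KO with trended robust variances.

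Signs turned for uncalled differences. Averaging all probe sets of a gene gave -0.94 for Socs3 in E2A_KO against WT and, in E2A_KO against HEB_KO, -0.45 for Socs3 and -0.0409 for Stat5a, and -0.12 for Jak1 in HEB_KO against WT. Cyclic loess gave -0.11 for Stat5b in HEB_KO against WT and -0.0382 for Socs1 in E2A_KO against HEB_KO. Median centring gave 0.0215 for Il7r in HEB_KO against WT and -0.0036 for Socs1 in E2A_KO against HEB_KO, where the replicate block and the crossed block gave -0.0387. The hybridization covariate gave Jak3 0.29 in E2A_KO against WT and 0.0422 in E2A_KO against HEB_KO. Without WT 2 and HEB_KO 1, Jak3 was 0.0337 in E2A_KO against WT, and in HEB_KO against WT Stat5b was -0.0889 and Socs3 0.0343. With 1 array left out, E2A_KO against WT ran from -1.24 to 0.0337 for Jak3 and from -0.29 to 0.10 for Cish, and HEB_KO against WT from -0.22 to 0.18 for Il7r, -0.47 to 0.81 for Jak3, -0.0171 to 0.43 for Stat5a, -0.24 to 0.25 for Stat5b and -0.18 to 0.0814 for Socs3. Socs1 in E2A_KO against HEB_KO ran from -0.0272 to 0.14. A group left with 1 array was assumed to vary like the others. The cause of these changes was not tested. Array numbers were not taken as pairs, since the deviations of same-numbered WT and HEB_KO arrays correlated at -0.277. With 2 arrays in each group, the 0.277 of the crossed arrays is the same fact. Over the tested genes WT 2 correlated with HEB_KO 1 at 0.9883. That is above the 0.9714 of WT 1 with WT 2 and the 0.9742 of HEB_KO 1 with HEB_KO 2. The crossed pairing, the removal of WT 2 and HEB_KO 1, and the alternatives for called genes that are no members were chosen after seeing the data.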
